A study of Mus musculus with 20 samples.

Results

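A set of 10 genes was drawn from the mouse left ventricle by 1 property: their difference between lights off and lights on was not the same in ventricles with and without the cardiomyocyte glucocorticoid receptor. The genes are Ccrn4l, Leo1, Zfp646, Rhobtb1, Wipf3, Akap1, Tnfaip2, Lrrc58, Klhdc8a and Ccdc69. All 10 are among the 24059 genes of the deposited tables and among the 14007 that passed the filter on low counts. They were picked from these same libraries for that difference, so the difference itself is given below as a description. Counts and adjusted p-values of the 10 in that contrast show only how the picking depends on threshold, setting and library. They are no test of the genes. In an edgeR quasi-likelihood fit across all genes, 26 genes (0.186%) passed a Benjamini-Hochberg adjusted p of 0.05 for it, 9 of the 10 among them; since the picking used this contrast, nothing is read from that count. Leo1 lay just inside that threshold (adjusted p of 0.0475) and Ccdc69 just outside it (0.0648). Without 1 library the 26 became 17 (GRflox at ZT0, replicate 2 or replicate 4, or GRflox at ZT12, replicate 4) or 16 (CardioGRKO at ZT12, replicate 1). The 9 became 4 without each of those 3 GRflox libraries, 3 without that CardioGRKO library, and 5 without CardioGRKO replicate 5 at ZT0, CardioGRKO replicate 4 at ZT12 or GRflox replicate 5 at ZT12.

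The libraries were made from poly(A) RNA of the left ventricular free wall of male C57BL/6 mice about 9 to 13 weeks old. CardioGRKO mice (GRfl/fl alphaMHCCre/+) have both copies of Nr3c1, the gene of that receptor, floxed, together with a Cre recombinase driven in cardiomyocytes by the promoter of alpha myosin heavy chain; the other cells of the ventricle keep the receptor. Their GRflox littermates (GRfl/fl) lack Cre, so all animals share the floxed alleles and the presence of Cre cannot be told apart from the loss of the receptor. There were 4 groups of 5 libraries: CardioGRKO at ZT12 (zeitgeber time 12, when the lights go off) and at ZT0 (lights on), and GRflox at ZT12 and at ZT0. The series asks, by its title, how the cardiomyocyte receptor bears on transcriptional rhythms of the heart.

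Glucocorticoids act through the receptor, a transcription factor that binds DNA once it has bound hormone, and in nocturnal rodents their blood level is known to rise towards the start of the dark phase. The circadian clock of each cell is a loop in which BMAL1 and CLOCK drive their own repressors through E-box sequences, with side loops that act through D-boxes and ROR elements. The 10 genes have no pathway in common: they were put together by their pattern. Ccrn4l, the gene of nocturnin, is known as a rhythmic output of the clock in mouse tissues, so the 10 lie outside a list of 19 core clock genes but not all outside clock biology.

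The libraries held 5854462 to 37648421 counted reads, with a median of 23223656. The fewest were in CardioGRKO replicate 1 of ZT0, whose deposited counts alone carry in their name a number different from that of the 19 others. What that number stands for is unknown. Levels below are CPM, read counts scaled to a common library size with edgeR's TMM factors, ± beside a level marks the SD of 5 libraries, and values per library run over replicates 1 to 5. Nr3c1 stood at 51.0 ± 3.50 CPM in CardioGRKO at ZT12 and 55.2 ± 3.51 CPM in CardioGRKO at ZT0, against 107 ± 7.98 CPM in GRflox at ZT12 and 115 ± 6.11 CPM in GRflox at ZT0, a log2 fold change of -1.07 ± 0.04 averaged over the times (edgeR, adjusted p = 6.23e-15). The 8 ventricular cardiomyocyte markers summed to 89647 to 103149 CPM in CardioGRKO and 103337 to 111536 CPM in GRflox, while 5 adipocyte markers summed to at most 3.47 CPM and 5 lymphocyte markers to at most 3.29 CPM in any library. The labels number the replicates without naming animals, so p-values measure the spread between these libraries.

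In 9 of the 10 genes the difference between ZT12 and ZT0 was larger in GRflox than in CardioGRKO, Zfp646 being the exception. In 8 it had the same sign in both genotypes. Among all genes tested the GRflox difference was the larger in 58.1%, and in the core clock list it was the larger in 18 of 19, with Nr1d1 the other way. It was also the larger in all 17 other genes that passed in the interaction. The median size of the time difference over the 10 genes was 0.32 on the log2 scale in CardioGRKO and 0.86 in GRflox, beside 0.10 and 0.12 over all genes. ZT12 and ZT0 libraries did not overlap for 7 of the 10 genes in CardioGRKO (7.11% of all genes) and for 9 of the 10 in GRflox (12.5% of all genes). CardioGRKO and GRflox libraries did not overlap for 7 of the 10 at ZT12 (13.8% of all genes) and for 3 of the 10 at ZT0 (11.9% of all genes). These counts describe the values that chose the genes.

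**Figure D1:**
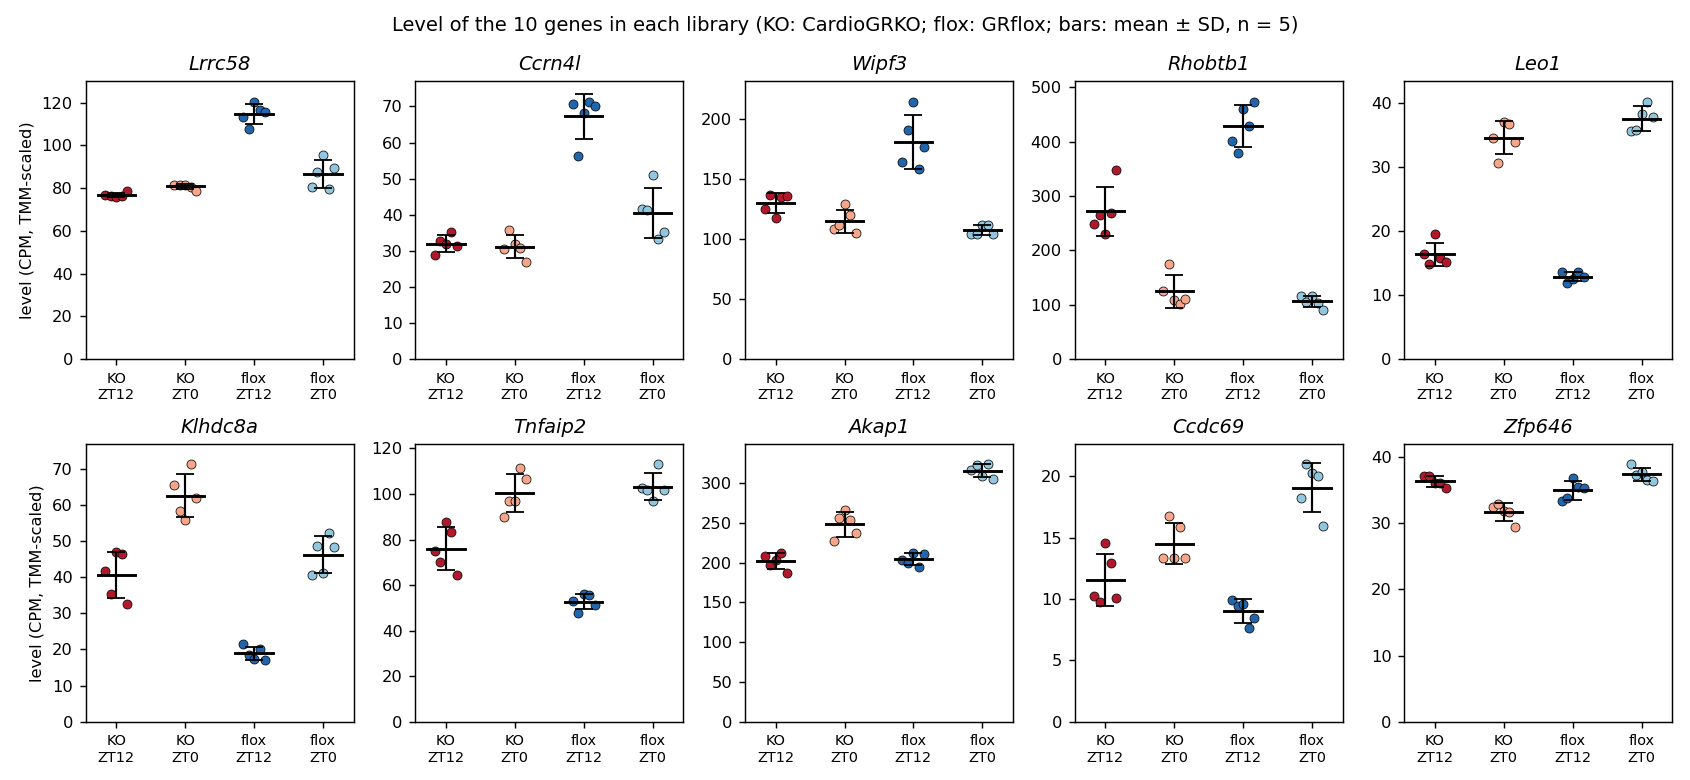
Level of each of the 10 genes in every library, in CPM on an axis that starts at 0, with the mean and SD of 5 libraries; CardioGRKO is left of GRflox and ZT12 left of ZT0. Lrrc58 and Ccrn4l stand high in GRflox at ZT12 alone, while Klhdc8a, Leo1 and Rhobtb1 differ between the times in both genotypes.

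**Figure D2:**
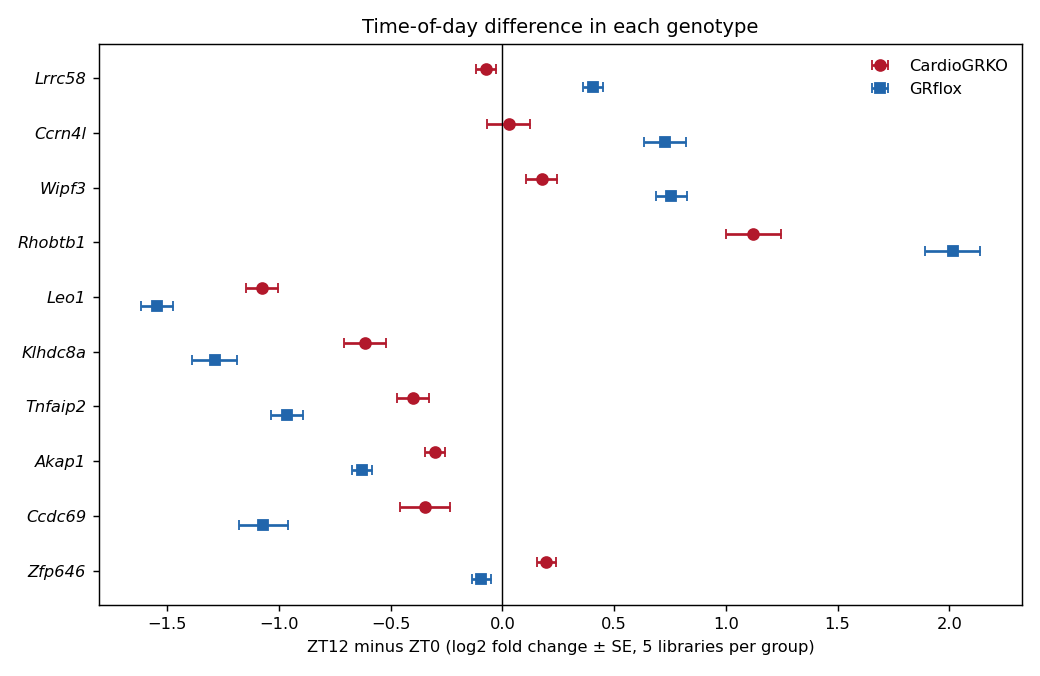
ZT12 minus ZT0 for each gene as a log2 fold change with its standard error, circles for CardioGRKO and squares for GRflox. The square lies farther from 0 than the circle for every gene except Zfp646.

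Ccrn4l codes for nocturnin, a protein of the family of yeast CCR4 deadenylases that also acts as a phosphatase on NADPH. The gene (Entrez gene 12457, listed as Noct in the reference) lies at chromosome 3, 51224447 to 51251654 on the plus strand (RefSeq, GRCm38.p6, which is mm10). The 250 bases before its RefSeq start, at chr3:51224197-51224446, are shown because they hold a match to a D-box pattern, printed in capitals.
Ccrn4l: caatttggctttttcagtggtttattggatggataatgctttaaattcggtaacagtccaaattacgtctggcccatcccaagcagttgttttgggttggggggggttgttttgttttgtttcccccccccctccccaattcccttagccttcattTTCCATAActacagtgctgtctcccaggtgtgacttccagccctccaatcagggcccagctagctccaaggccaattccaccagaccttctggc
Its level in CardioGRKO was 28.7, 32.8, 32.0, 35.3 and 31.2 CPM at ZT12 and 30.5, 35.7, 31.9, 30.7 and 26.9 CPM at ZT0. The GRflox libraries had 70.5, 56.2, 68.2, 71.3 and 70.1 CPM at ZT12 and 41.5, 41.3, 50.9, 33.3 and 35.1 CPM at ZT0. The 2 CardioGRKO groups overlapped almost fully, and every GRflox library at ZT12 was above all the other 15. The time difference was 0.03 ± 0.10 (log2 fold change ± standard error) in CardioGRKO and 0.73 ± 0.09 in GRflox, and the first minus the second was -0.70 ± 0.13. At ZT12 the CardioGRKO level was 2.10-fold lower than the GRflox level, and at ZT0 1.29-fold lower with overlapping libraries.

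Leo1 codes for a subunit of the PAF1 complex, which travels with RNA polymerase II during elongation. It lies at chromosome 9, 75441015 to 75466432 on the plus strand (Entrez gene 235497). The stretch before the start given in the promoter table, at chr9:75441274-75441523 and so inside this span, holds a match to a ROR element in capitals, the kind of sequence through which the ROR and REV-ERB factors of the clock act.
Leo1: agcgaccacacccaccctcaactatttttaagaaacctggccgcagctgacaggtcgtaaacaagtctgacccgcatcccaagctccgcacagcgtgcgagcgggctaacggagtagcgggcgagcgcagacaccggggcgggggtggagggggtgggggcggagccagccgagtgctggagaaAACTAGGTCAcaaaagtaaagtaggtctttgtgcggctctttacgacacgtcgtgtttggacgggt
Leo1 stood at 16.4, 14.9, 19.5, 15.8 and 15.1 CPM in CardioGRKO at ZT12, and at 34.6, 30.7, 37.0, 36.7 and 33.9 CPM in CardioGRKO at ZT0. In GRflox it stood at 13.5, 11.9, 12.6, 13.5 and 12.7 CPM at ZT12. The GRflox libraries at ZT0 had 35.7, 35.7, 38.3, 40.2 and 37.8 CPM. All ZT12 libraries were thus below all ZT0 libraries in both genotypes, and at ZT12 every CardioGRKO library was above every GRflox library. The difference between the times was -1.08 ± 0.07 in CardioGRKO and -1.55 ± 0.07 in GRflox, so the CardioGRKO difference was 69.5% of the GRflox one on the log2 scale, the highest share among the 8 genes with the same sign in both genotypes.

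Zfp646 codes for a zinc finger protein of the nucleus and lies at chromosome 7, 127876914 to 127885996 on the plus strand (Entrez gene 233905). Its level was 37.2, 37.1, 36.0, 36.1 and 35.3 CPM in CardioGRKO at ZT12 and 32.4, 32.9, 31.9, 31.7 and 29.5 CPM in CardioGRKO at ZT0. In GRflox it was 33.4, 33.8, 36.8, 35.4 and 35.3 CPM at ZT12 and 38.9, 37.2, 37.8, 36.6 and 36.4 CPM at ZT0. The 4 groups spanned a narrow range, and the CardioGRKO libraries at ZT0 were below all 15 others. Between the times it differed by 0.20 ± 0.04 in CardioGRKO and -0.10 ± 0.04 in GRflox, of opposite sign, and the first minus the second was 0.29 ± 0.06, the smallest of the 10 in size. With all libraries thinned to the depth of the shallowest that last value was 0.17. Zfp646 shares exon sequence with Zfp668 and Prss53 on the other strand (GENCODE), and no source used here says whether reads were assigned by strand. Both neighbours were lower, with mean levels of 6.55 to 7.59 CPM for Zfp668 and 3.60 to 4.10 CPM for Prss53 in the 4 groups. Zfp646 itself averaged 36.3 and 31.7 CPM in CardioGRKO at ZT12 and ZT0, and 34.9 and 37.3 CPM in GRflox. In the interaction Zfp668 stood at 0.17 ± 0.15 (edgeR, adjusted p = 0.939) and Prss53 at 0.14 ± 0.17 (adjusted p = 0.981), both of the sign of Zfp646. Without strand, reads of these genes cannot be told apart, and their part in the Zfp646 values was not tested.

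Rhobtb1 codes for a protein with BTB domains that binds cullin 3, and in mouse vascular smooth muscle it is known to lower the level of phosphodiesterase 5. It lies at chromosome 10, 69151058 to 69291791 on the plus strand (Entrez gene 69288). RefSeq gives 3 promoter windows, of which the one at chr10:69212407-69212656 is shown for the E-box in capitals, the sequence bound by BMAL1 and CLOCK.
Rhobtb1: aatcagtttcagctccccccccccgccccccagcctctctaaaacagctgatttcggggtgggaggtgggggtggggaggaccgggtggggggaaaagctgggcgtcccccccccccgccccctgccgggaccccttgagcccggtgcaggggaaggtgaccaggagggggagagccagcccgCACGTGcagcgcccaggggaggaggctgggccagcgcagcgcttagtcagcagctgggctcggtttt
Rhobtb1 had 249, 265, 229.9, 269 and 348 CPM in CardioGRKO at ZT12, and 126, 175, 109, 101 and 111 CPM in CardioGRKO at ZT0. GRflox libraries had 402, 379, 459, 429 and 473 CPM at ZT12. At ZT0 the GRflox libraries had 116, 105, 116, 102 and 90.7 CPM. Libraries of ZT12 were above those of ZT0 in both genotypes, and at ZT12 all CardioGRKO libraries were below all GRflox libraries. The level at ZT12 was 2.18-fold that at ZT0 in CardioGRKO and 4.04-fold in GRflox (1.12 ± 0.12 and 2.02 ± 0.12). The first minus the second, -0.89 ± 0.17, was the largest of the 10 in size. It ranged over -0.998 to -0.728 when any 1 library was left out, the value nearest to 0 being that without replicate 2 of CardioGRKO at ZT0, the highest library of its group.

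Wipf3 codes for a member of the WIP family, proteins that bind actin and N-WASP, an activator of the actin-branching Arp2/3 complex. It lies at chromosome 6, 54429218 to 54503768 on the plus strand (Entrez gene 330319). The level was 125, 137, 118, 135 and 135 CPM in CardioGRKO at ZT12, and 108, 112, 129, 119.8 and 105 CPM in CardioGRKO at ZT0. GRflox libraries stood at 164, 190.4, 214, 158 and 176 CPM at ZT12 and at 104, 104, 112, 111 and 104 CPM at ZT0. The CardioGRKO groups overlapped between the times, and every GRflox library at ZT12 was above the other 15. Between ZT12 and ZT0 the difference was 0.18 ± 0.07 in CardioGRKO and 0.76 ± 0.07 in GRflox. An antisense gene that shares exon sequence with Wipf3, 9130019P16Rik, had 11.2 and 9.47 CPM on average in CardioGRKO at ZT12 and ZT0, and 14.2 and 7.88 CPM in GRflox at ZT12 and ZT0. Without strand, reads of this pair cannot be told apart.

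Akap1 codes for a scaffold that holds protein kinase A at the outer membrane of mitochondria. It lies at chromosome 11, 88830792 to 88864596 on the minus strand (Entrez gene 11640). Its level was 209, 197, 203, 212 and 187 CPM in CardioGRKO at ZT12 and 227, 256, 266, 254 and 237 CPM in CardioGRKO at ZT0. In GRflox it was 204, 199.7, 212, 194 and 210.4 CPM at ZT12, and 316, 323, 309, 323 and 306 CPM at ZT0. At ZT12 the genotypes overlapped, with means of 202 ± 10.1 CPM in CardioGRKO and 204 ± 7.44 CPM in GRflox. At ZT0 all CardioGRKO libraries were below all GRflox libraries. The time difference was -0.30 ± 0.04 in CardioGRKO and -0.63 ± 0.04 in GRflox. Akap1 thus differed from Ccrn4l, Wipf3 and Lrrc58 in the time at which the genotypes stood apart.

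Tnfaip2 is a gene induced by tumour necrosis factor, and its product, also called M-Sec, helps cells to form thin membrane tubes. It lies at chromosome 12, 111442450 to 111455018 on the plus strand (Entrez gene 21928). The level was 75.1, 69.9, 87.7, 83.1 and 64.3 CPM in CardioGRKO at ZT12, and 90.1, 97.0, 97.0, 111 and 106 CPM in CardioGRKO at ZT0. GRflox libraries had 52.8, 48.0, 56.3, 55.7 and 51.1 CPM at ZT12 and 103, 102, 97.0, 113 and 102 CPM at ZT0. The genotypes overlapped at ZT0 and stood apart at ZT12, where the CardioGRKO libraries were the higher. ZT12 minus ZT0 came to -0.40 ± 0.07 in CardioGRKO and -0.97 ± 0.07 in GRflox. Endothelial cells are among the cells that can express Tnfaip2, and 6 of 8 endothelial markers were lower at ZT12, averaged over genotypes (25.7% of all genes passed). The summed level of the 8 ran over 981 to 1138 CPM in CardioGRKO at ZT12 and 1213 to 1355 CPM in CardioGRKO at ZT0, and over 1141 to 1230 CPM in GRflox at ZT12 and 1387 to 1537 CPM in GRflox at ZT0. Kdr had the largest time difference of the 8. It averaged 195 and 311 CPM in CardioGRKO at ZT12 and ZT0, and 199 and 342 CPM in GRflox. Esam (0.07 ± 0.03) and Egfl7 (-0.04 ± 0.05) did not pass for time. No marker of the list was at 0, none passed in the interaction, and their part in the Tnfaip2 values was not tested. Of 6 tested macrophage markers, 2 were higher and none lower at ZT12. In bulk tissue, fewer cells of a type and less RNA per cell cannot be told apart.

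Lrrc58 codes for a leucine-rich repeat protein and lies at chromosome 16, 37868400 to 37888857 on the plus strand (Entrez gene 320184). The bases before its start, at chr16:37868150-37868399, hold an E-box in capitals.
Lrrc58: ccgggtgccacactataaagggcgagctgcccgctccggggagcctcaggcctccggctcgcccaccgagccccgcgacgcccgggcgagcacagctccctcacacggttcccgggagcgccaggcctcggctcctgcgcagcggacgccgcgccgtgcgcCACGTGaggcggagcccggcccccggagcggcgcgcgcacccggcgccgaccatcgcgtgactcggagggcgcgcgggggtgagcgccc
In CardioGRKO its level was 76.6, 76.4, 75.9, 76.3 and 78.7 CPM at ZT12 and 81.5, 81.5, 81.5, 80.6 and 78.7 CPM at ZT0. GRflox libraries had 113, 108, 120.5, 117 and 116 CPM at ZT12 and 80.7, 87.5, 95.6, 79.5 and 89.3 CPM at ZT0. Every GRflox library at ZT12 was above the other 15, and the 10 CardioGRKO libraries lay between 75.9 and 81.5 CPM. The time difference was -0.07 ± 0.05 in CardioGRKO and 0.40 ± 0.04 in GRflox, and the first minus the second was -0.48 ± 0.06. At ZT12 the CardioGRKO level was 1.49-fold lower than the GRflox level.

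Klhdc8a codes for a protein with kelch repeats and lies at chromosome 1, 132298490 to 132307357 on the plus strand (Entrez gene 213417). It had 41.8, 35.3, 47.0, 46.3 and 32.6 CPM in CardioGRKO at ZT12 and 65.4, 58.3, 55.9, 71.2 and 61.8 CPM in CardioGRKO at ZT0. In GRflox it had 21.5, 18.5, 17.4, 20.03 and 17.0 CPM at ZT12 and 40.5, 48.7, 41.2, 52.2 and 48.2 CPM at ZT0. It was the only one of the 10 for which the libraries of the genotypes did not overlap at either time, with CardioGRKO the higher at both. The level was 2.16-fold higher in CardioGRKO at ZT12 and 1.36-fold higher at ZT0. Between the times it differed by -0.61 ± 0.10 in CardioGRKO and -1.29 ± 0.10 in GRflox.

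Ccdc69 codes for a coiled-coil protein that in human cells is known to act in assembly of the central spindle during cell division. It lies at chromosome 11, 55049733 to 55078666 on the minus strand (Entrez gene 52570) and had the fewest reads of the 10, 81 to 638 per library. Its level was 10.2, 9.79, 14.6, 13.0 and 10.1 CPM in CardioGRKO at ZT12 and 13.3, 16.7, 13.3, 15.9 and 13.4 CPM in CardioGRKO at ZT0. In GRflox it was 9.92, 9.46, 9.62, 7.61 and 8.42 CPM at ZT12 and 18.2, 21.0, 20.3, 19.99 and 15.9 CPM at ZT0. CardioGRKO and GRflox overlapped at both times, with the CardioGRKO mean above the GRflox mean at ZT12 and below it at ZT0. ZT12 minus ZT0 came to -0.35 ± 0.11 in CardioGRKO, where the libraries overlapped, and -1.07 ± 0.11 in GRflox, where they did not.

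RefSeq promoter windows were at hand for 8 of the 10 genes, 12 windows in all, and not for Ccdc69 and Zfp646. The 250 bases before each start were searched on both strands for an E-box (CACGTG), an E′-box (CACGTT), a D-box (TTATGNAA), a ROR element (AAN directly before TAGGTCA), a cAMP response element (TGACGTCA) and a glucocorticoid response element (GNACA, any 3 bases and TGTNC), where N is any base. The 4 matches were the E-boxes of Lrrc58 and Rhobtb1, the D-box of Ccrn4l and the ROR element of Leo1. Of all 32851 windows of this length, 6.02% hold the E-box, 3.07% the D-box and 0.177% the ROR element. The windows of the 8 genes held no match to the E′-box (3.85% of all windows), the cAMP response element (1.55%) or the glucocorticoid response element (0.387%). A match is a run of letters and not a bound site.

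The genotype difference averaged over both times has, in this balanced design, weights orthogonal to those of the contrast that chose the genes. It was tested, but both contrasts share the estimate of each gene's spread. Picking can thus favour genes of small spread, so the counts and p-values of the 10 are not independent of it. Of the 10 genes, 7 passed (edgeR quasi-likelihood test, adjusted p over 14007 genes), 2 higher and 5 lower in CardioGRKO; 31.4% of all genes passed. Klhdc8a rose in CardioGRKO by 0.77 ± 0.07 (edgeR, adjusted p = 7.17e-09) and Tnfaip2 by 0.25 ± 0.05 (edgeR, adjusted p = 5.86e-04). Ccrn4l was the lowest of the 10, at -0.72 ± 0.07 (edgeR, adjusted p = 1.44e-08). Lrrc58 stood at -0.34 ± 0.03 (edgeR, adjusted p = 1.44e-08), Wipf3 at -0.19 ± 0.05 (adjusted p = 0.00506) and Akap1 at -0.18 ± 0.03 (adjusted p = 9.53e-05). In these 3 genes the average covers unequal differences at ZT12 and ZT0, since Lrrc58 and Wipf3 stood apart at ZT12 and Akap1 at ZT0. Tnfaip2 stood at 0.53 ± 0.07 at ZT12 and -0.03 ± 0.07 at ZT0, so its average also rests on ZT12. The values at ZT12 and ZT0 were 1.11 ± 0.10 and 0.44 ± 0.10 for Klhdc8a, and -1.07 ± 0.09 and -0.37 ± 0.10 for Ccrn4l. For Zfp646 they were 0.06 ± 0.04 and -0.24 ± 0.04. Zfp646 passed at -0.09 ± 0.03 (edgeR, adjusted p = 0.0278), but not without GRflox replicate 1 at ZT0 (adjusted p = 0.0639), CardioGRKO replicate 5 at ZT0 (0.0587), GRflox replicate 3 at ZT12 (0.0605) or CardioGRKO replicate 5 at ZT12 (0.0552).

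Markers of cell types moved with genotype too, as did 31.4% of all genes. Of 8 ventricular cardiomyocyte markers 6 were lower in CardioGRKO and 1 was higher, Actc1 at 0.11 ± 0.03 (edgeR, adjusted p = 0.0113), and 6 of 8 endothelial markers were lower and none higher. Of 7 markers of smooth muscle and pericytes 4 were lower and 1 was higher, Acta2 at 1.04 ± 0.10 (edgeR, adjusted p = 1.60e-08), the largest difference of that list. The summed level of these 7 had a median of 893 CPM at ZT12 and 925 CPM at ZT0 in CardioGRKO, against 727 CPM at ZT12 and 747 CPM at ZT0 in GRflox. Acta2 alone averaged 368 CPM at ZT12 and 471 CPM at ZT0 in CardioGRKO, against 193 and 214 CPM in GRflox. The higher sum thus reflects Acta2 and not the list as a whole. None of 7 fibroblast markers passed. Their part in the values of the 10 genes was not tested.

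Rhobtb1, Leo1 and Ccdc69 did not pass for genotype. Rhobtb1 stood at -0.21 ± 0.09 (edgeR, adjusted p = 0.0635), and it passed without GRflox replicate 5 at ZT0 (adjusted p = 0.0416), CardioGRKO replicate 2 at ZT0 (0.00186), GRflox replicate 2 at ZT12 (0.0494) or CardioGRKO replicate 5 at ZT12 (0.0163). Leo1 stood at 0.12 ± 0.05 (edgeR, adjusted p = 0.076) and passed without CardioGRKO replicate 2 at ZT0 (0.0281) or CardioGRKO replicate 2 at ZT12 (0.0426). Ccdc69 averaged -0.01 ± 0.08 (edgeR, adjusted p = 0.956), since its genotype differences of 0.35 ± 0.11 at ZT12 and -0.37 ± 0.11 at ZT0 have opposite signs.

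The time difference averaged over both genotypes likewise has orthogonal weights, with the same limit. It passed for 9 of the 10 genes (25.7% of all genes), 4 higher and 5 lower at ZT12. Rhobtb1 rose by 1.57 ± 0.09 (edgeR, adjusted p = 2.37e-12), Wipf3 by 0.47 ± 0.05 (adjusted p = 1.60e-07), Ccrn4l by 0.38 ± 0.07 (adjusted p = 1.70e-04) and Lrrc58 by 0.17 ± 0.03 (adjusted p = 3.87e-04). The average covers unequal differences in the genotypes for all 10 genes, which were picked for that. For Wipf3 the difference was 0.18 ± 0.07 in CardioGRKO and 0.76 ± 0.07 in GRflox. For Ccrn4l it was 0.03 ± 0.10 in CardioGRKO and 0.73 ± 0.09 in GRflox. For Lrrc58 it was -0.07 ± 0.05 in CardioGRKO and 0.40 ± 0.04 in GRflox. Leo1 had the lowest value of the 10, -1.31 ± 0.05 (edgeR, adjusted p = 2.04e-15), followed by Klhdc8a at -0.95 ± 0.07 (adjusted p = 3.27e-10) and Ccdc69 at -0.71 ± 0.08 (adjusted p = 3.37e-07). Tnfaip2 stood at -0.68 ± 0.05 (edgeR, adjusted p = 4.76e-10) and Akap1 at -0.46 ± 0.03 (adjusted p = 8.69e-11). Zfp646 did not pass, at 0.05 ± 0.03 (edgeR, adjusted p = 0.245). All 9 calls held without any 1 library. The median size over the 10 was 0.57 on the log2 scale, beside 0.10 over all genes. For genotype it was 0.20, beside 0.11 over all genes.

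**Figure D3:**
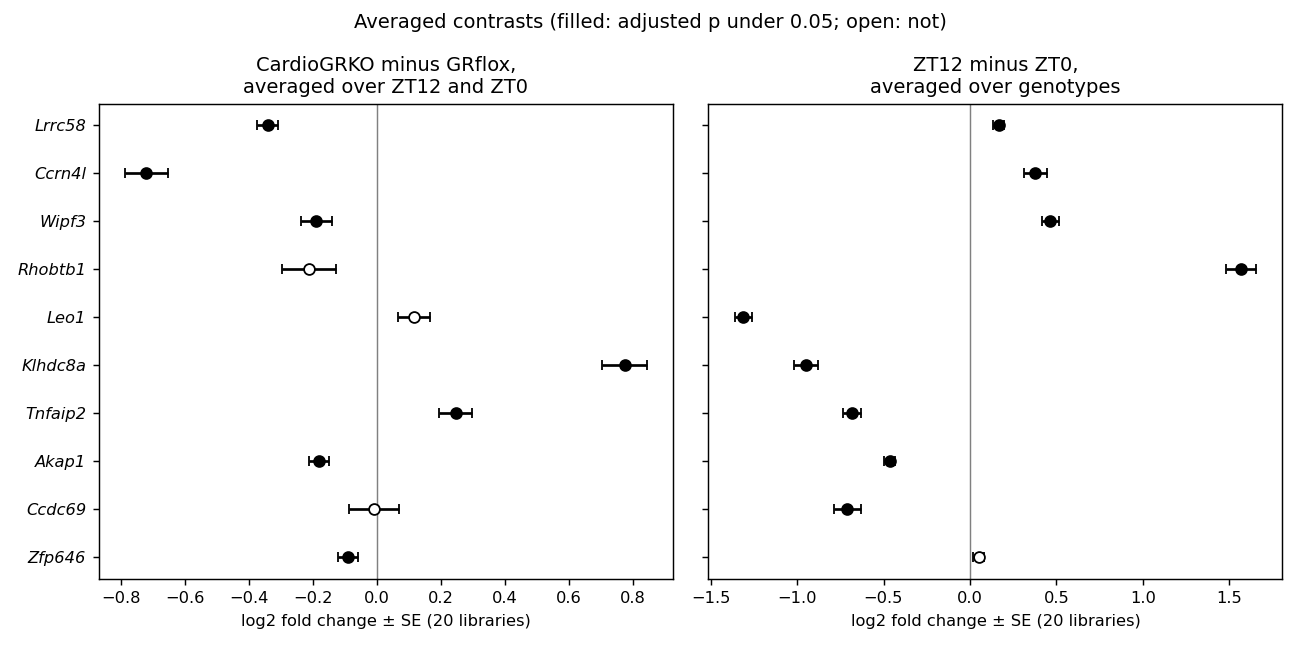
Averaged contrasts of the 10 genes as log2 fold changes with standard errors from the fit to 20 libraries, CardioGRKO minus GRflox on the left and ZT12 minus ZT0 on the right; filled points have an adjusted p under 0.05. Filled points number 7 for genotype and 9 for time, and Rhobtb1 and Leo1 lie farthest from 0 for time on the 2 sides.

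Partners and relatives of the proteins were read from 8 lists with 110 tested genes besides the members. None passed in the interaction by edgeR, 4 had an unadjusted p under 0.05 (3.64%, beside 5.99% of all genes), and neither DESeq2 nor limma called any. Over all genes 31.4% passed for genotype and 25.7% for time, and the counts of every list that follows stand beside these shares. No list was tested as a set. Of 17 genes of the PAF1 complex and elongation, the relatives of Leo1, 2 were lower in CardioGRKO, among them the complex subunit gene Rtf1 at -0.14 ± 0.04 (edgeR, adjusted p = 0.00281). For time 3 of the 17 were higher and 2 lower at ZT12, with the subunit gene Cdc73 at -0.13 ± 0.04 (adjusted p = 0.00795), a far smaller difference than the -1.31 ± 0.05 of Leo1. Of 16 genes of deadenylation around Ccrn4l, 2 were higher and 3 lower in CardioGRKO. Tob2, which codes for an adaptor of the CCR4-NOT deadenylase, stood at -0.91 ± 0.08 for genotype (edgeR, adjusted p = 7.57e-09) and at 0.56 ± 0.08 for time (adjusted p = 1.74e-05), with 3 of the 16 higher and 2 lower for time.

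Of 17 tested genes of kinase anchoring around Akap1, 5 were higher and none lower in CardioGRKO, where 31.4% of all genes passed. The regulatory subunit gene Prkar1a stood at 0.31 ± 0.04 (edgeR, adjusted p = 6.59e-06) and the anchoring gene Akap6 at 0.25 ± 0.04 (adjusted p = 4.97e-05). For time, where 25.7% of all genes passed, 1 of the 17 was higher and 3 were lower, including Prkar1a at -0.25 ± 0.04 (adjusted p = 9.98e-05). Of 16 actin genes around Wipf3, 4 were higher and 2 lower in CardioGRKO, and 1 was higher and 2 were lower at ZT12; its relative Wipf1 stood at -0.19 ± 0.04 for genotype (adjusted p = 0.00208). Of 12 genes around Rhobtb1 and cullin 3, 3 were lower in CardioGRKO, Cul3 itself at -0.12 ± 0.03 (adjusted p = 0.00566), and 3 were higher and 1 was lower at ZT12. The largest of these was Klhl38 at 0.75 ± 0.14 (adjusted p = 2.83e-04), which also had the smallest interaction p of the 110 genes, at -0.90 ± 0.28 (edgeR, adjusted p = 0.366). The lower one was Pde5a, the phosphodiesterase 5 gene, at -0.27 ± 0.09 (adjusted p = 0.0313).

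Of 15 genes of the tumour necrosis factor response around Tnfaip2, 5 were lower and 1 was higher at ZT12, with Tnfaip3 at -0.62 ± 0.12 (edgeR, adjusted p = 4.59e-04) and Tnfaip1 at -0.24 ± 0.03 (adjusted p = 5.09e-07). For genotype 1 was higher and 2 were lower, the mitochondrial superoxide dismutase gene Sod2 at -0.24 ± 0.03 (adjusted p = 2.20e-07). Among 8 tested relatives of Klhdc8a only Klhdc7a passed for genotype, higher in CardioGRKO at 2.11 ± 0.09 (adjusted p = 1.04e-14), and 7 did not. For time 1 of the 8 was higher and 1 was lower at ZT12, the lower being Klhdc7a at -0.43 ± 0.08 (adjusted p = 5.39e-04). Of 9 central spindle genes around Ccdc69, 3 were higher in CardioGRKO, with Birc5, the gene of survivin, at 0.91 ± 0.22 (adjusted p = 0.00277), and 1 was lower at ZT12. Birc5 was low, averaging 1.45 and 1.53 CPM in CardioGRKO at ZT12 and ZT0, and 0.80 and 0.75 CPM in GRflox.

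The genes whose patterns were nearest to each of the 10 were found by the root mean square difference of log2 CPM over the 20 libraries, each gene centred on its own mean. The measure covers every difference between the libraries, so a near gene need not share the difference of the time changes. Of the near genes named here and in the next paragraph, Wbp1l and Tef alone passed in the interaction. The edgeR adjusted p-values of the others ran from 0.0897 (2310022B05Rik) to 0.981 (Ypel2). For Lrrc58, which varied by 0.23 around its mean in this measure, the nearest was Wbp1l (0.08). Wbp1l averaged 94.8 ± 2.74 and 94.1 ± 6.49 CPM in CardioGRKO at ZT12 and ZT0, and 133 ± 12.8 and 101 ± 4.89 CPM in GRflox at ZT12 and ZT0. For Rhobtb1 (its own 0.85) they were the clock output gene Tef (0.20) and Tcap (0.23), which codes for telethonin of the Z-disc. Tcap averaged 1347 ± 228 and 597 ± 62.2 CPM in CardioGRKO at ZT12 and ZT0, and 1919 ± 52.2 and 582 ± 61.6 CPM in GRflox at ZT12 and ZT0. For Leo1 (its own 0.67) they were Clock (0.20) and Clmp (0.20), and for Wipf3 (its own 0.31) Cipc (0.13), whose product inhibits CLOCK, and Mylk4 (0.14). Clock averaged 48.0 ± 3.70 and 91.7 ± 8.65 CPM in CardioGRKO at ZT12 and ZT0, and 47.2 ± 1.52 and 107 ± 3.68 CPM in GRflox at ZT12 and ZT0.

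For Klhdc8a (its own 0.65) the nearest were Ankrd23 (0.20) and Ypel2 (0.25), and for Ccrn4l (its own 0.47) Mbd1 (0.16) and Raph1 (0.18). Tnfaip2 (its own 0.41) was nearest to 2310022B05Rik (0.13) and Col4a1 (0.16), a collagen chain of basement membranes. Akap1 (its own 0.27) was nearest to Phc2 (0.10) and Foxj2 (0.11), and Ccdc69 (its own 0.43) to Fam73b (0.20) and Fam220a (0.21). For Zfp646 the nearest, Pi4kb (0.07) and Kat7 (0.07), lay not far below its own 0.10.

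The nearest tested genes on either side of the 10 did not pass in the interaction. Elf2, 1066 bases from Ccrn4l, averaged 65.5 and 59.3 CPM in CardioGRKO at ZT12 and ZT0, and 71.3 and 65.1 CPM in GRflox at ZT12 and ZT0. Its interaction value was 0.01 ± 0.08 (edgeR, adjusted p = 0.998), beside -0.70 ± 0.13 for Ccrn4l. Of the genes that share exon sequence with the 10 by GENCODE, Scrn1 on the strand opposite to Wipf3 had mean levels of 5.51 to 6.53 CPM in the 4 groups, while Gm15725 (with Lrrc58), A930033H14Rik (with Rhobtb1) and Gm40578 (with Tnfaip2) were not among the tested genes. Akap1 and Ccdc69 are the only pair on 1 chromosome, and the 10 genes lie on 9 chromosomes.

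**Figure D4:**
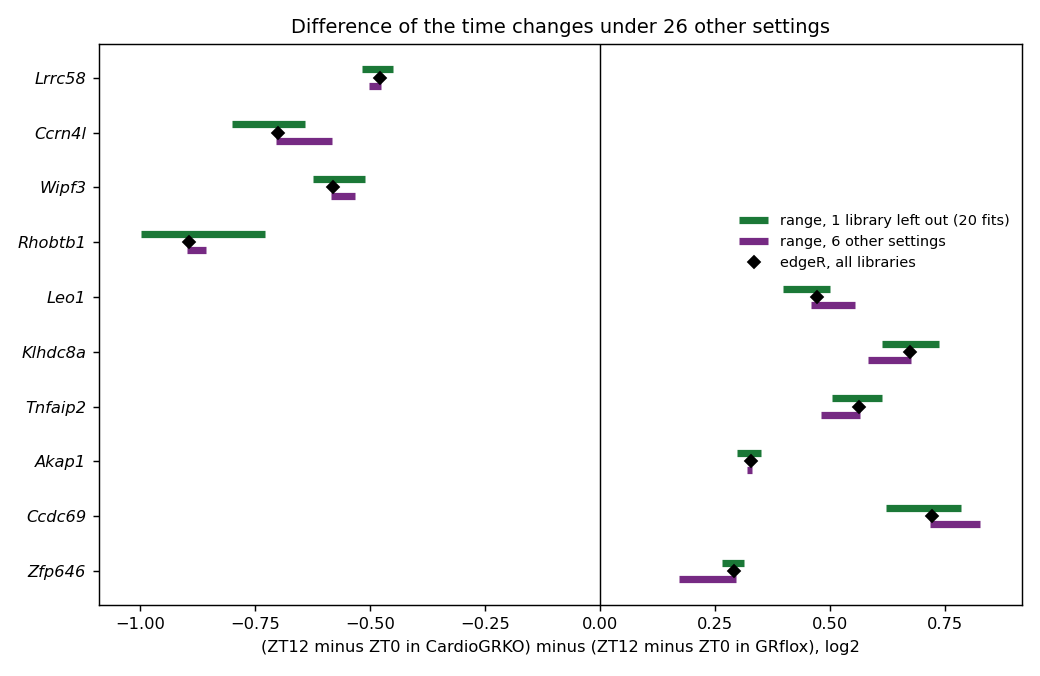
ZT12 minus ZT0 in CardioGRKO minus ZT12 minus ZT0 in GRflox, on the log2 scale, for each of the 10 genes: the diamond is the edgeR value with all libraries, the upper bar the range without any 1 of 20 libraries and the lower bar the range over 6 other settings. Each bar stays on the side of 0 of its diamond, and the lower bar of Zfp646 reaches nearest to 0, at 0.17.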

How the data were processed

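The members and gene lists were chosen with earlier results of these data known. The deposited values are raw counts of reads per gene, 1 table per library. Alignment and counting are credited to STAR 2.5.1 and Subread 1.5.1 (featureCounts) on mm10 by the labels' tool list, which per the submitters' processing notes also holds DESeq2 1.38.3. No source used here states the strand setting, how reads with several matches were handled, or which annotation release was used. Lines of 1 gene were summed by Entrez identifier.

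Genes were kept by filterByExpr (minimum count 10), and edgeR 4.0.16 in R 4.3.3 fitted 4 group means to all 20 libraries, with TMM factors of 0.961 to 1.040 and a common biological coefficient of variation of 8.78%. P-values are from the quasi-likelihood F-test, adjusted by Benjamini-Hochberg over all genes tested. Standard errors were taken as |log2 fold change| divided by √F. Log2 CPM used a prior count of 2. The code was tested on simulated data. Alternatives used DESeq2 1.42.0 and limma 3.58.1. No library looked like a copy of another: the chi-square per gene between replicates was 4.22 to 20.96. Positions and promoters are from RefSeq (GRCm38.p6), matched by Entrez identifier, and strand and exon overlap from GENCODE M21.

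Named besides the 10 were Nr3c1, for each of the 10 the 2 genes of nearest pattern and its neighbours, and list genes with the smallest p; 1 gene that this rule names is not reported here.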

Additional observations from a re-analysis of the deposited data

Results flagged for a closer look

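In 2 of 40 groups of 5 libraries 1 library lay far from the other 4, and chance flags about 1 group in 20. Lrrc58 was at 78.7 CPM in replicate 5 of CardioGRKO at ZT12, with the other 4 between 75.9 and 76.6 CPM. The SD of that group was 1.43% of its mean, below the 2.34% that counting of reads alone would give. For the Ccrn4l group that follows these shares were 9.36% and 2.71%. Ccrn4l was at 56.2 CPM in replicate 2 of GRflox at ZT12, with the other 4 between 68.2 and 71.3 CPM.

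Among the listed genes other than the 10, the difference between ZT12 and ZT0 differed between the genotypes for 4 of 19 core clock genes. CardioGRKO minus GRflox, it was 1.18 ± 0.24 for Arntl (edgeR quasi-likelihood test, adjusted p = 0.0397), -0.86 ± 0.16 for Per3 (adjusted p = 0.0137), -1.36 ± 0.16 for Dbp (adjusted p = 3.32e-04) and -0.58 ± 0.11 for Tef (adjusted p = 0.0129). The other 15 core clock genes did not pass, and 0.186% of all genes passed. Arntl was low at ZT12, averaging 2.60 CPM in CardioGRKO and 1.78 CPM in GRflox.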

How the results depend on the processing

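The alternatives were the size factors of DESeq2, its Wald test, no filter on low counts, the replicate number as a block, libraries thinned to the shallowest, limma-trend on log2 CPM, and each of the 20 libraries left out. For genotype averaged over times the count of 4405 genes ran over 4087 to 4425 without 1 library and over 3000 to 4494 in the other settings, and the count of the 10 genes over 6 to 9. For time averaged over genotypes, 3594 genes became 3188 to 3662 without 1 library and 2318 with thinned libraries, where fewer reads were counted; the 9 of 10 calls held throughout. The 26 genes of the interaction became 16 to 33 without 1 library, 69 with the DESeq2 Wald test, which called all 26, and 20 with limma; the cause was not tested. The number of the 10 past the threshold there ran over 3 to 10. Adjusted p-values of Ccdc69 there were 0.0648 in edgeR and 0.00529 in DESeq2.

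For single genes, Zfp646 lost its genotype call without the filter (adjusted p = 0.0677) and with thinned libraries (0.125), and Rhobtb1 gained it in limma (0.0386). The genotype value of Ccdc69, never called, turned to 0.062 with thinned libraries and ran over -0.0547 to 0.0208 without 1 library. No other value of the averaged contrasts changed sign.

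The replicate numbers were not taken as a pairing: deviations of same-numbered libraries correlated above 0.1 in 8 of 30 pairs (median 0.03), 3 of them among the 5 pairs of CardioGRKO and GRflox at ZT12 (0.00965 to 0.234). With the replicate block 38 genes were called in the interaction, 25 of them among the 26, and Leo1 passed for genotype (adjusted p = 0.0443).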
